A study of Sus scrofa with 6 samples.

Results

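The genes that sense oxygen in a back muscle, the longissimus dorsi, were compared between 3 adipocyte-specific UCP1 KI pigs and 3 WT pigs, all 6 months old. These UCP1 KI pigs (KI below) carry a UCP1 gene knocked in for expression in adipocytes, so the muscle was measured as a tissue other than the one the knock-in targets. WT pigs carry no knock-in. The sex and litter of the pigs and the promoter of the knock-in are not given in the sources used here. The labels number the libraries as replicates, and each was taken as 1 pig. The p-values therefore measure the spread between these libraries.

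The list held 9 genes, taken by name. They were *HIF1A*, *EPAS1*, *ARNT*, *EGLN1*, *EGLN2*, *EGLN3*, *HIF1AN*, *VHL* and *ADM*. The gene name table paired 7 of them with a pig identifier, out of 30476 identifiers in the count table, and all 7 passed the filter on low counts that left 13402 genes for testing. *EGLN2* and *VHL* were found under no identifier and were not analysed here.

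Hypoxia-inducible factors (HIF) are transcription factors of an oxygen-labile alpha subunit and a stable beta subunit. In the presence of oxygen, prolyl hydroxylases mark the alpha subunit for the VHL ubiquitin ligase, which sends it to the proteasome, and an asparaginyl hydroxylase blocks its coactivators. This control acts on protein, so the mRNA levels given here do not show HIF activity. In muscle, HIF is known for its part in capillary supply and in the use of glucose without oxygen.

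The libraries held between 30220951 and 35066624 counts on genes. Levels are CPM, the counts of a gene scaled by the TMM-adjusted library total, and a count of 0 allows a level of up to 3 counts, or 0.0795 to 0.11 CPM (counting error only). In WT replicate 2 the 20 most abundant genes held 56.5% of the counts, against 39.1% to 44.8% in the other libraries. Muscle genes were high in every library, with 8 of 10 muscle identity markers found and a summed level of 48870 to 75990 CPM in KI pigs and 62650 to 75510 CPM in WT pigs. Genes with p under 0.05 before adjustment (edgeR, quasi-likelihood) and a log2 fold change beyond 0.5 in either direction counted as called, which held for 8.19% of all genes tested. Of these calls, 3.84% of the genes tested were higher and 4.34% lower in KI pigs. With edgeR, 0 genes had an adjusted p under 0.05 and 1100 an unadjusted p under 0.05, and 127 genes had an adjusted p under 0.05 with DESeq2.

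None of the 7 measured genes was called. Their log2 fold changes, KI against WT, ran from -0.65 for *ADM* to 0.27 for *EGLN3*, with a median of -0.02 beside -0.02 over all genes tested. Of the 7, 0 had an unadjusted p under 0.05 by edgeR, where the smallest was 0.151, and 0 by DESeq2, where the smallest was 0.155. The KI and WT pigs overlapped for all 7 genes, and 15.3% of all genes tested did not overlap (7.59% higher and 7.69% lower in KI pigs). With 7 genes this is not read as a difference from that share.

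**Figure D1:**
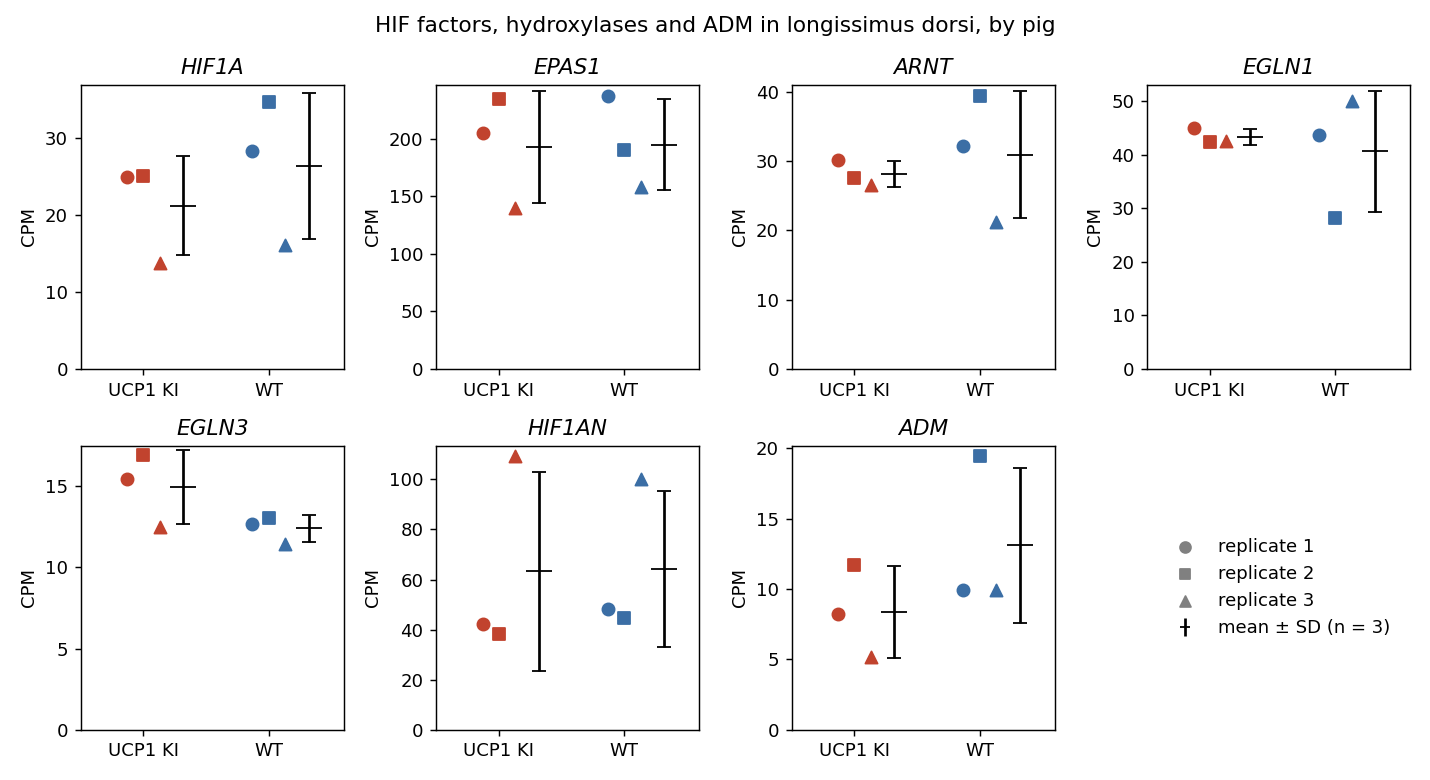
Level in CPM (vertical axis, from 0) of the 7 measured genes in each KI pig (red) and WT pig (blue), with the mean ± SD of 3 pigs in black and the replicate number as the symbol. In every panel the groups overlap, and for *HIF1AN* replicate 3 of each group lies at 109 and 100.2 CPM, above the other 4 pigs at 38.1 to 48.2 CPM.

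*HIF1A* (ENSSSCG00000005096, chr1:190625436-190673926 in Sscrofa11.1) encodes the HIF-1 alpha subunit. It was at 24.9, 25.1 and 13.8 CPM in KI replicates 1 to 3 and at 28.4, 34.7 and 16.1 CPM in WT replicates 1 to 3. KI pigs averaged 21.2 ± 6.49 CPM and WT pigs 26.4 ± 9.45 CPM (SD, n = 3 each). Replicate 3 was the lowest pig in both groups, and each of the other KI pigs lay below both other WT pigs. The log2 fold change was -0.31 (SE 0.36, 95% interval -1.16 to 0.53, Benjamini-Hochberg adjusted p = 0.830 in edgeR; SE is the standard error). It was -0.07 without WT replicate 2 and -0.57 without WT replicate 3.

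*EPAS1* (ENSSSCG00000008443, chr3:94167759-94253662 in Sscrofa11.1) encodes the HIF-2 alpha subunit, which is known for its expression in vascular endothelium. Its level was 205, 235 and 140 CPM in KI pigs and 237, 190 and 158 CPM in WT pigs. The means of 193 ± 48.5 and 195 ± 39.8 CPM (SD, n = 3 each) were almost equal, and replicate 3 was again the lowest of each group. The log2 fold change was -0.01 (SE 0.29, 95% interval -0.69 to 0.66, adjusted p = 0.991 from edgeR). It turned to 0.17 without KI replicate 3 and to 0.15 without WT replicate 1. The interval runs from a fold of 0.62 to a fold of 1.58, and changes within it are not excluded by these pigs.

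*ARNT* (ENSSSCG00000006646, chr4:98333431-98390012 in Sscrofa11.1) encodes the beta subunit that both alpha subunits share. Levels were 30.2, 27.6 and 26.5 CPM in KI pigs and 32.2, 39.3 and 21.3 CPM in WT pigs. KI pigs were close together, at 28.1 ± 1.89 CPM (SD, n = 3), and all 3 lay within the range of the WT pigs, at 30.9 ± 9.10 CPM (SD, n = 3). The log2 fold change of -0.14 (SE 0.27, 95% interval -0.77 to 0.49, adjusted p = 0.903 from edgeR) turned to 0.07 without WT replicate 2. In the RefSeq annotation *HIF1A*, *EPAS1* and *ARNT* each overlap 1 other gene. Whether the reads were counted by strand is not given in the sources used here, so reads of the overlapping gene cannot be told apart from theirs in the shared stretch.

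The related alpha subunit gene *HIF3A* (ENSSSCG00000003101) was at 1.26, 0.982 and 1.59 CPM in KI pigs and at 0.882, 1.35 and 2.17 CPM in WT pigs. For *HIF3A* the log2 fold change was -0.20 (SE 0.47, adjusted p = 0.920 from edgeR), and 0.20 without WT replicate 3. *ARNT2*, a beta subunit gene known mainly from neurons, had 8, 0 and 14 counts in KI pigs, against 12, 8 and 4 in WT pigs, and was left out by the filter. The balance of subunits was examined as the log2 ratio of their counts within a pig, which does not depend on library scaling. The ratio of *EPAS1* to *HIF1A* was 3.04, 3.23 and 3.34 in KI pigs, against 3.06, 2.46 and 3.29 in WT pigs. The ratios themselves depend on the lengths of both genes, and the difference between the groups, 0.27, does not (two-sided exact permutation test, p = 0.5, where 3 against 3 cannot go below 0.1). Without WT replicate 2, the pig with the lowest ratio, this difference was 0.03. The ratio of *ARNT* to *HIF1A* differed by 0.20 (exact p = 0.7), and by -0.05 without KI replicate 3. Over the 6 ratios and differences examined, the smallest exact p was 0.2 and all adjusted p values were 0.8.

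*EGLN1* (ENSSSCG00000010172, chr14:59113527-59168421 in Sscrofa11.1) encodes PHD2, known as the main prolyl hydroxylase that sets HIF levels in oxygenated cells. It was at 44.99, 42.3 and 42.6 CPM in KI pigs and at 43.6, 28.2 and 50.02 CPM in WT pigs. WT replicate 2 stood below the other 5 pigs, which lay between 42.3 and 50.02 CPM. KI pigs averaged 43.3 ± 1.48 CPM and WT pigs 40.6 ± 11.2 CPM (SD, n = 3 each), with a log2 fold change of 0.09 (SE 0.26, 95% interval -0.52 to 0.70, adjusted p = 0.934 from edgeR). The direction rested on that pig, since the value was -0.12 without it.

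*EGLN3* (ENSSSCG00000001963, chr7:65805513-65833536 in Sscrofa11.1) encodes PHD3, a prolyl hydroxylase whose gene is itself induced by HIF. Levels in KI pigs were 15.4, 16.9 and 12.5 CPM, and those in WT pigs were 12.7, 13.1 and 11.5 CPM. KI replicates 1 and 2 were above every WT pig, and replicate 3 fell among them. The means of 15.0 ± 2.26 and 12.4 ± 0.850 CPM (SD, n = 3 each) gave a log2 fold change of 0.27 (SE 0.23, 95% interval -0.27 to 0.81, adjusted p = 0.769 from edgeR). It stayed positive with each pig left out, from 0.16 to 0.38. *EGLN3* also varied least within groups among the 7 genes, with an SD of 0.173 on the log2 scale, and 6.17% of all genes tested had a smaller one. The log2 ratio of *EGLN3* to *EGLN1* differed between the groups by 0.13 (two-sided exact permutation test, p = 0.7), by 0.41 without WT replicate 2, by 0.016 without KI replicate 2 and by -0.10 without WT replicate 3.

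*HIF1AN* (ENSSSCG00000010555, chr14:111636317-111654659 in Sscrofa11.1) encodes factor inhibiting HIF, the asparaginyl hydroxylase. It was at 42.4, 38.1 and 109 CPM in KI pigs and at 48.2, 44.5 and 100.2 CPM in WT pigs. Replicate 3 of both groups was thus more than double every other pig, and the remaining pigs of both groups lay between 38.1 and 48.2 CPM. The means of 63.2 ± 39.9 and 64.3 ± 31.2 CPM (SD, n = 3 each) gave a log2 fold change of -0.02 (SE 0.50, 95% interval -1.18 to 1.13, adjusted p = 0.991 from edgeR). This value was -0.67 without KI replicate 3 and 0.45 without WT replicate 3, and it was 0.20 and 0.22 without KI replicates 1 and 2. *HIF1AN* had the largest within-group SD of the 7 genes, 0.747 on the log2 scale, and 78.0% of all genes tested had a smaller one. The pigs at which *HIF1AN* was high were those at which *HIF1A* and *EPAS1* were lowest in each group. The log2 ratio of *HIF1AN* to *EGLN1* was -0.09, -0.15 and 1.36 in KI pigs, against 0.14, 0.66 and 1 in WT pigs (difference -0.23, two-sided exact permutation test, p = 0.8). That difference was -0.72 without KI replicate 3, -0.46 without WT replicate 1, -0.03 without WT replicate 3, and 0.0017 and 0.035 without KI replicates 1 and 2.

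*P4HTM* (ENSSSCG00000011368, chr13:31627230-31642251 in Sscrofa11.1), a transmembrane prolyl hydroxylase of the endoplasmic reticulum that can act on HIF alpha subunits, was listed as a relative of the EGLN genes. It had 25, 67 and 112 counts in KI pigs and 0 counts in each WT pig. The levels in KI pigs were 0.809, 1.88 and 2.97 CPM, a mean of 1.89 ± 1.08 CPM (SD, n = 3). With 3 counts allowed in each WT library, a mean of 0.0975 CPM, the mean level of *P4HTM* in KI pigs was at least 19.3-fold higher, and that of the lowest KI pig, replicate 1, at least 8.30-fold higher. These bounds cover counting error only. *P4HTM* passed the filter on low counts only through the KI pigs, and the filter of at least 10 counts in every pig removed it, so the counts are given as a description with no test. *P4HTM* overlaps *WDR6* by 45 bases in the RefSeq annotation. *WDR6* (ENSSSCG00000011369) had 158, 43 and 270 counts in KI pigs and 366, 291 and 263 in WT pigs, with a fitted log2 change of -1.13 (SE 0.56, adjusted p = 0.635 from edgeR). Its levels were 5.11, 1.21 and 7.15 CPM in KI pigs and 10.1, 10.6 and 8.78 CPM in WT pigs. All KI pigs thus lay below all WT pigs, as for 7.69% of all genes tested. *WDR6* and the neighbouring *ARIH2* and *DALRD3* were counted in every library, *ARIH2* at 67.9 to 152 CPM in WT pigs. How the counting divided reads between *P4HTM* and *WDR6* was not tested.

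The VHL protein works in a ligase with elongins B and C, cullin 2 and RBX1. Of these 4 partner genes, all were tested and 0 were called, with a median log2 fold change of 0.05. *CUL2* (ENSSSCG00000011104) was at 34.1, 38.3 and 38.1 CPM in KI pigs and at 29.5, 33.5 and 17.0 CPM in WT pigs. All KI pigs lay above all WT pigs, as 7.59% of all genes tested did, and the log2 fold change of 0.47 (SE 0.29, 95% interval -0.20 to 1.13) did not pass the test (adjusted p = 0.694 from edgeR). Without WT replicate 3, the lowest pig, it was 0.23. *ELOB*, *ELOC* and *RBX1* overlapped between the groups, at log2 fold changes of -0.27, 0.07 and 0.04. *ELOB* ran from -0.47 without WT replicate 1 to -0.09 without WT replicate 2. *ELOC* turned to -0.02 without KI replicate 2 and -0.04 without WT replicate 1, and *RBX1* to -0.09 without KI replicate 3 and -0.09 without WT replicate 1. Of 10 coactivators and regulators of HIF, 0 were called and 2 did not overlap between the groups, a share near the 15.3% of all genes tested. Their median was -0.08, from -0.44 for *CITED2*, which competes with HIF for coactivators, to 0.43 for *OS9*, which binds HIF-1 alpha and prolyl hydroxylases.

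**Figure D2:**
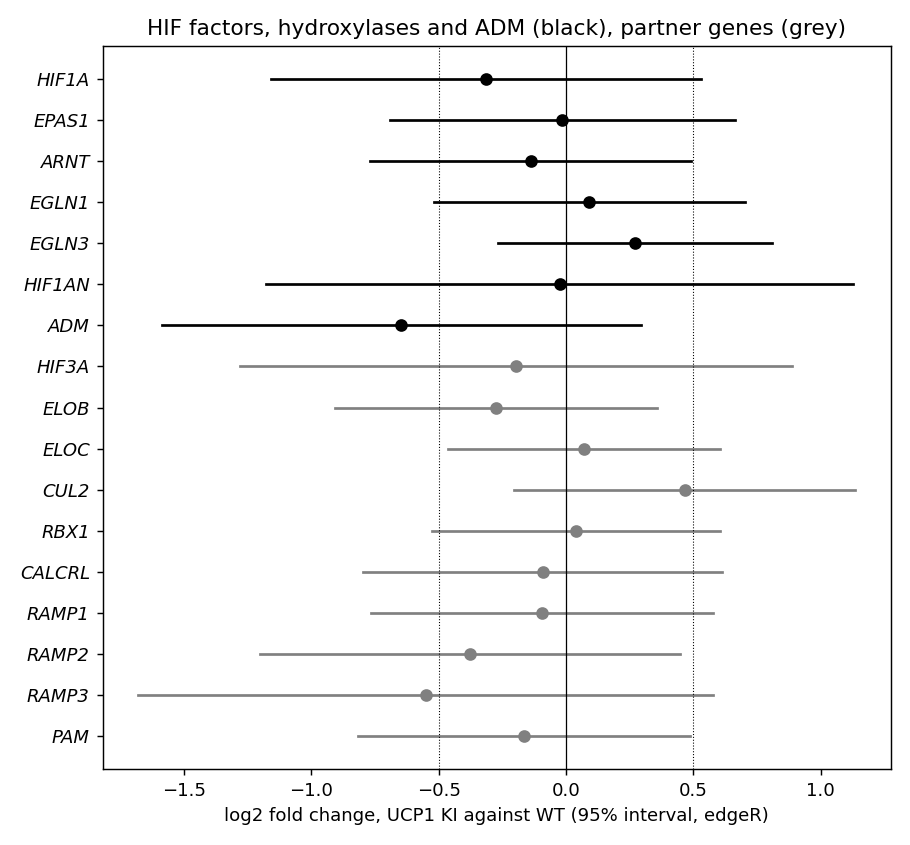
Log2 fold change of KI against WT (horizontal axis) from edgeR with its 95% interval, for the 7 measured genes (black) and for *HIF3A*, the VHL partners and the adrenomedullin receptor and processing genes (grey). Dotted lines mark the limits of 0.5 and -0.5, and every interval crosses 0. *P4HTM*, at 0 counts in all WT pigs, is left out.

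*ADM* (ENSSSCG00000013408, chr2:49229223-49231521 in Sscrofa11.1) encodes adrenomedullin, a vasodilator peptide whose gene is a well-known HIF target. It was at 8.22, 11.7 and 5.17 CPM in KI pigs and at 9.92, 19.5 and 9.91 CPM in WT pigs. WT replicate 2 was the highest pig and KI replicate 3 the lowest, 3.77-fold apart, and KI replicate 2 was above WT replicates 1 and 3. The means of 8.37 ± 3.28 and 13.1 ± 5.51 CPM (SD, n = 3 each) gave the log2 fold change furthest from 0 among the 7 genes, -0.65 (SE 0.40, 95% interval -1.59 to 0.29). Its unadjusted p was 0.151 and its adjusted p 0.695 from edgeR, so it was not called. The log2 fold change was -0.25 without WT replicate 2 and -0.97 without KI replicate 2. With the replicate number as a block it was -0.65 and called (unadjusted p = 0.0484 from edgeR).

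Adrenomedullin acts on a receptor formed by *CALCRL* with *RAMP2* or *RAMP3*, while *RAMP1* with *CALCRL* forms the receptor of a related peptide, and *PAM* encodes the enzyme that amidates the peptide. All 5 were tested and 0 were called. Every log2 fold change was negative, from -0.55 for *RAMP3* to -0.09 for *CALCRL*, with a median of -0.16. *RAMP3* (ENSSSCG00000031144) was at 3.01, 3.70 and 2.38 CPM in KI pigs and at 7.66, 3.47 and 2.17 CPM in WT pigs. WT replicate 1 alone stood above the KI pigs, and without it the log2 fold change was 0.10. *RAMP2* (ENSSSCG00000017389) was at 126, 149 and 95.97 CPM in KI pigs and at 200, 192 and 89.8 CPM in WT pigs, with a log2 fold change of -0.38 (SE 0.36) that ran from -0.66 without WT replicate 3 to -0.20 without WT replicate 1. Signs also turned for *PAM* (0.01) without WT replicate 1, for *CALCRL* without KI replicate 1 (0.02) or 3 (0.08), and for *RAMP1* without KI replicate 2 (0.05) or WT replicate 2 (0.02). With library size only, which raised the median of all genes by 0.25, *CALCRL*, *RAMP1* and *PAM* were at 0.18, 0.19 and 0.06.

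*EPAS1*, *ADM* and the adrenomedullin receptor genes are known from endothelial cells, and in a bulk sample fewer cells of a type and less RNA per cell cannot be told apart. Of 12 endothelial markers 11 were found and tested. Their summed level was 552 to 1079 CPM in KI pigs and 538 to 991 CPM in WT pigs, lowest in replicate 3 of each group, and none was at 0. The median log2 fold change of these markers was 0.06, and 1, *TEK*, was called. The log2 level of *EPAS1* had an SD of 0.308 over the 6 pigs, and 0.157 after the mean of the endothelial markers was taken off in each pig. For *HIF1A* the SD went from 0.506 to 0.314, for *ADM* from 0.623 to 0.611, and for *HIF1AN* from 0.670 to 1.07. It was also higher after this step for *EGLN1* (0.285 to 0.546), *ARNT* (0.297 to 0.332) and *EGLN3* (0.211 to 0.286), so that it was lower for 3 of the 7 genes and higher for 4. *EPAS1* less the endothelial mean was 1.78, 1.87 and 1.93 in KI pigs, against 1.93, 1.91 and 2.24 in WT pigs on the log2 scale (difference -0.17, two-sided exact permutation test, p = 0.3), and the difference was -0.059 without WT replicate 3. *ADM* less the same mean was -2.86, -2.46 and -2.82 in KI pigs, against -2.65, -1.38 and -1.75 in WT pigs, a difference of -0.79 (exact p = 0.2). Replicate 1 of the WT pigs fell among the KI pigs, and without WT replicate 2 the difference was -0.51. The mean taken off includes *TEK* (log2 fold change 1.20), and the differences for *EPAS1* and *ADM* were not computed without it.

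**Figure D3:**
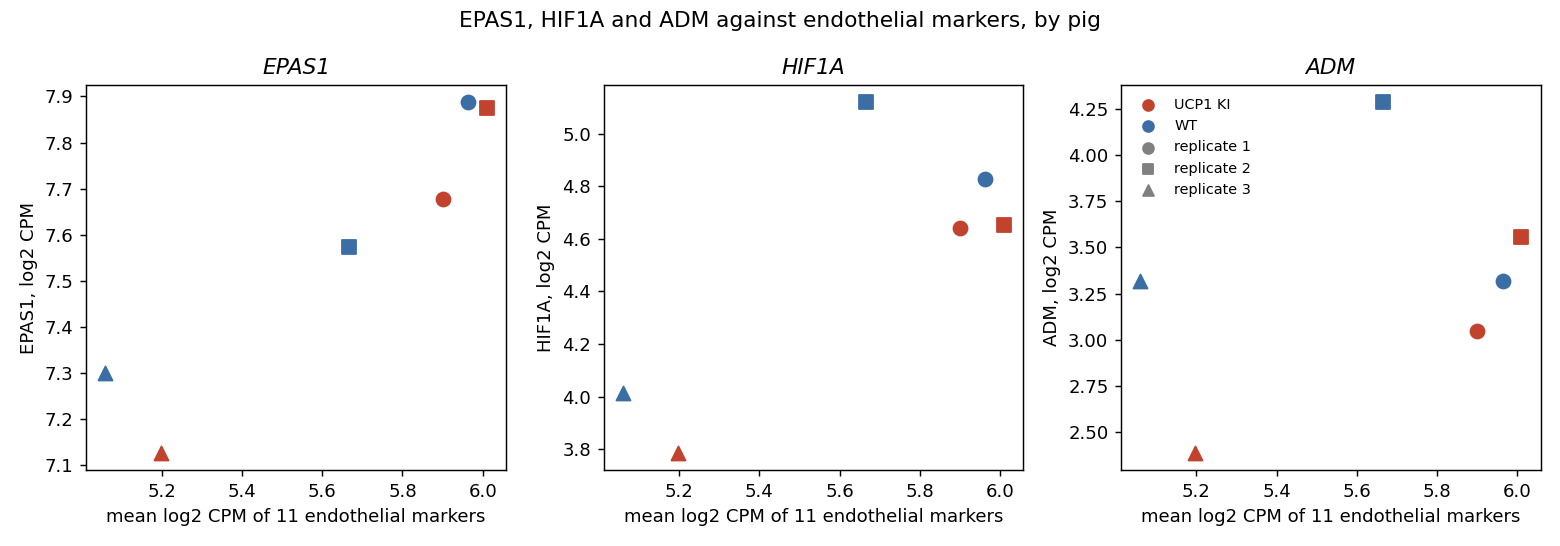
Log2 CPM of *EPAS1*, *HIF1A* and *ADM* (vertical axes) against the mean log2 CPM of the 11 endothelial markers (horizontal axes) in each KI pig (red) and WT pig (blue), with the replicate number as the symbol. Replicate 3 of each group is low on both axes for *EPAS1* and *HIF1A*, and WT replicate 2 is highest for *HIF1A* and *ADM*.

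Markers of other cell types were counted the same way, beside 3.84% of all genes tested called higher and 4.34% called lower. The 8 fibroblast markers summed to 262 to 452 CPM in KI pigs and 755 to 1215 CPM in WT pigs without overlap. Of these, 4 were called lower, *COL1A1*, *COL1A2*, *COL3A1* and *LUM*. The log2 fold changes were negative for 6 and positive for 2 (*DPT*, 0.17, and *FBLN1*, 0.10), with *PDGFRA* at -0.08. *COL1A1*, *COL1A2* and *COL3A1* averaged 36.4, 61.1 and 138 CPM in KI pigs and 132, 198 and 412 CPM in WT pigs. *DCN*, at 92.2 and 121 CPM, overlapped between the groups. The sum without the collagens was not computed. With single pigs left out, *LUM* lost its call in 5 of 6 fits and *COL3A1* without WT replicate 2 (-1.31). Of 8 smooth muscle and pericyte markers, all with negative log2 fold changes, 1 (*NOTCH3*) was called lower, and their sum was 351 to 516 CPM against 452 to 976 CPM in WT pigs. The call of *NOTCH3* was lost without KI replicates 1 or 2 and without WT replicate 1, where its log2 fold change went from -1.02 to -0.43. The 5 red blood cell markers found summed to 11.6 to 76.5 CPM against 106 to 181 CPM, with 1 of 4 tested (*HBM*) called lower and all 4 log2 fold changes negative. Leukocyte markers summed to 34.6 to 116 CPM against 35.4 to 76.7 CPM, with 1 of 10 (*CD3E*) called higher and all 10 log2 fold changes positive (median 0.45). The calls of *HBM* and *CD3E* were each lost in 4 of 6 fits with a pig left out, and *CD3E* went from 1.84 to 0.95 without KI replicate 2. None of the 6 adipocyte markers tested was called, all 6 had negative log2 fold changes (median -0.96), and their list summed to 63.6 to 213 CPM against 78.2 to 367 CPM. Neither the 6 slow nor the 5 fast fibre markers had a call. The fast fibre sum was lowest in KI replicate 2, at 14330 CPM against 28500 to 74350 CPM in the other pigs. The part of these cell types in the levels of the HIF genes was not tested.

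Genes that HIF is known to induce were taken by symbol from a list. Of 19 tested genes of glucose metabolism 3 were called, all higher in KI pigs, where 3.84% of all genes tested were called higher. Of the 19 log2 fold changes 9 were positive, and their median was -0.11, beside -0.02 over all genes tested. The sign of this median turned without KI replicate 3 (0.14), without WT replicate 2 (0.14) and with library size only (0.22). Of 32 other HIF targets tested, 2 were called higher and 2 lower, where 8.19% of all genes tested were called in either direction. Their median was 0.12, with values of -0.03 and -0.05 without KI replicates 2 and 3 and 0.20 without WT replicate 1. Of both lists together 7 genes were called, 3 without KI replicate 2 and 2 without WT replicate 2.

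**Figure D4:**
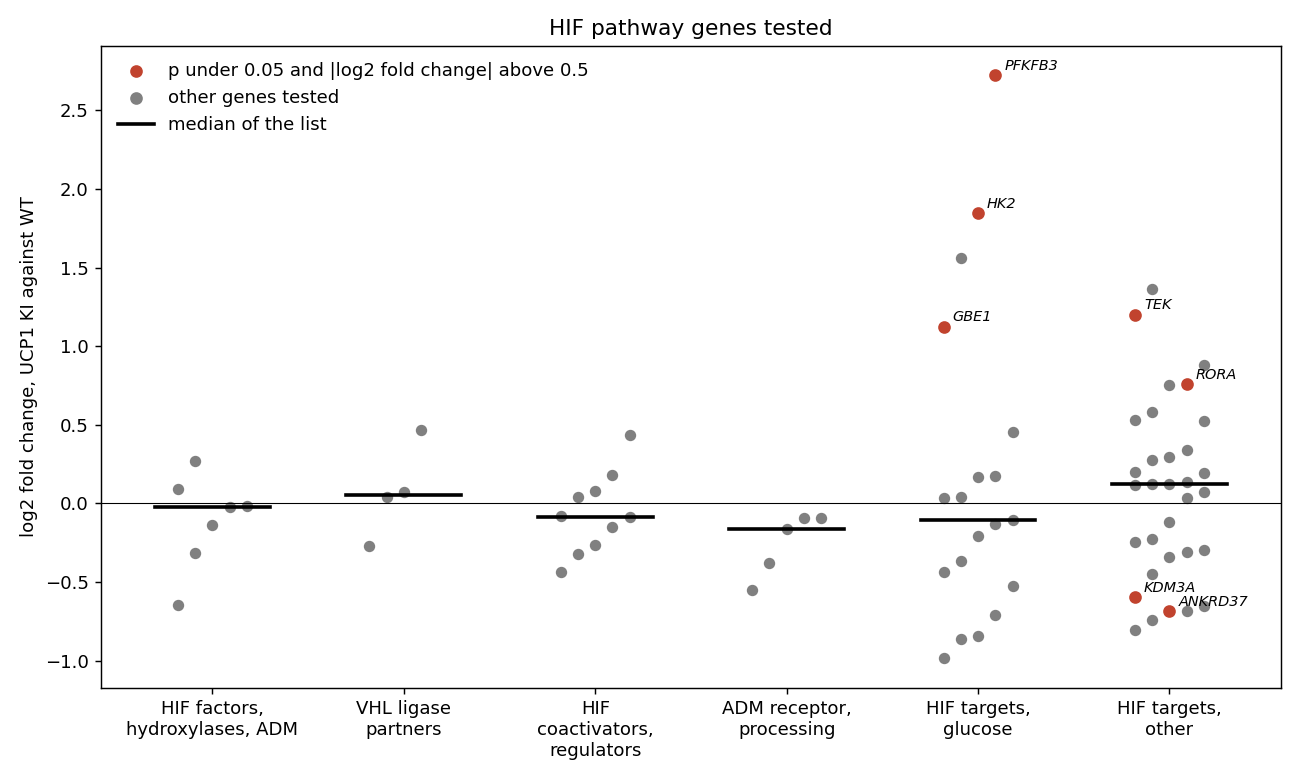
Log2 fold change of KI against WT (vertical axis) for each gene tested, by list, with called genes in red and the median of each list as a black bar. The 7 measured genes (HIF factors, hydroxylases and *ADM*), the VHL partners, the coactivators and the receptor genes hold no called gene. The 2 lists of HIF targets hold 7.

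Among the glucose genes, *HK2* (ENSSSCG00000008261), a hexokinase that starts glycolysis, was at 55.9, 59.9 and 12.3 CPM in KI pigs and at 15.9, 6.5 and 13.2 CPM in WT pigs. KI replicates 1 and 2 were above all WT pigs, and replicate 3 was among them. The log2 fold change of *HK2* was 1.85 (SE 0.60, unadjusted p = 0.0162 and adjusted p = 0.583 from edgeR). The call was lost without KI replicate 2 (1.53) and without WT replicate 2 (1.55). *PFKFB3* (ENSSSCG00000011133), which makes an activator of glycolysis, was at 199, 19.8 and 589 CPM in KI pigs and at 16.5, 45.6 and 60.1 CPM in WT pigs. KI replicate 3 was far above the rest and KI replicate 2 was below WT replicates 2 and 3. Its log2 fold change of 2.72 (SE 1.04, adjusted p = 0.589 from edgeR) was 1.45 and not called without KI replicate 3, nor called without WT replicates 1, 2 or 3 in turn (2.33, 2.81 and 3.12). *GBE1* (ENSSSCG00000012000), the glycogen branching enzyme, was at 12.7, 15.3 and 17.0 CPM in KI pigs and at 7.09, 9.02 and 4.51 CPM in WT pigs. Here the groups did not overlap, and the log2 fold change of 1.12 (SE 0.31, unadjusted p = 0.00758 and adjusted p = 0.583 from edgeR) was called with each pig left out. *LDHA*, lactate dehydrogenase, and *PDK1*, which restrains pyruvate oxidation, had log2 fold changes of -0.86 and 0.45 and were not called.

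*TEK* (ENSSSCG00000005122), the endothelial receptor of angiopoietins, which also stands among the endothelial markers, was at 38.3, 50.6 and 46.1 CPM in KI pigs and at 23.4, 19.1 and 16.3 CPM in WT pigs. It was higher in every KI pig, by a log2 fold change of 1.20 (SE 0.24, unadjusted p = 0.00123 and adjusted p = 0.403 from edgeR), and was called with each pig left out. With DESeq2 on the same genes the unadjusted p of *TEK* was 1.49e-05. *RORA* (ENSSSCG00000004576), a nuclear receptor of the circadian clock, was at 5.92, 10.5 and 6.54 CPM in KI pigs against 4.25, 4.16 and 5.17 CPM, a log2 fold change of 0.76 (SE 0.31) without overlap. The call of *RORA* was lost without KI replicate 2 (0.45) and without WT replicates 1 or 2 (0.71 and 0.70). *ANKRD37* (ENSSSCG00000015798), an ankyrin repeat gene known as a HIF target, was at 4.14, 3.53 and 4.34 CPM against 5.60, 8.40 and 5.34 CPM. *KDM3A* (ENSSSCG00000008221), a histone demethylase that itself uses oxygen, was at 6.95, 9.73 and 9.93 CPM against 12.96, 13.6 and 13.7 CPM. Both were lower in every KI pig, with log2 fold changes of -0.68 (SE 0.29) and -0.60 (SE 0.24). The call of *ANKRD37* was lost without each KI pig in turn (-0.70, -0.61 and -0.75) and without WT replicate 2 (-0.45). That of *KDM3A* was lost without KI replicates 1 or 2 (-0.45 and -0.68) and without WT replicates 2 or 3 (-0.59 and -0.58). With library size only neither was called (-0.40 for *ANKRD37* and -0.32 for *KDM3A*), nor with all genes with any count (-0.66 and -0.58). *VEGFA*, the angiogenic ligand, had a log2 fold change of -0.31 (SE 0.32) and was not called.

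**Figure D5:**
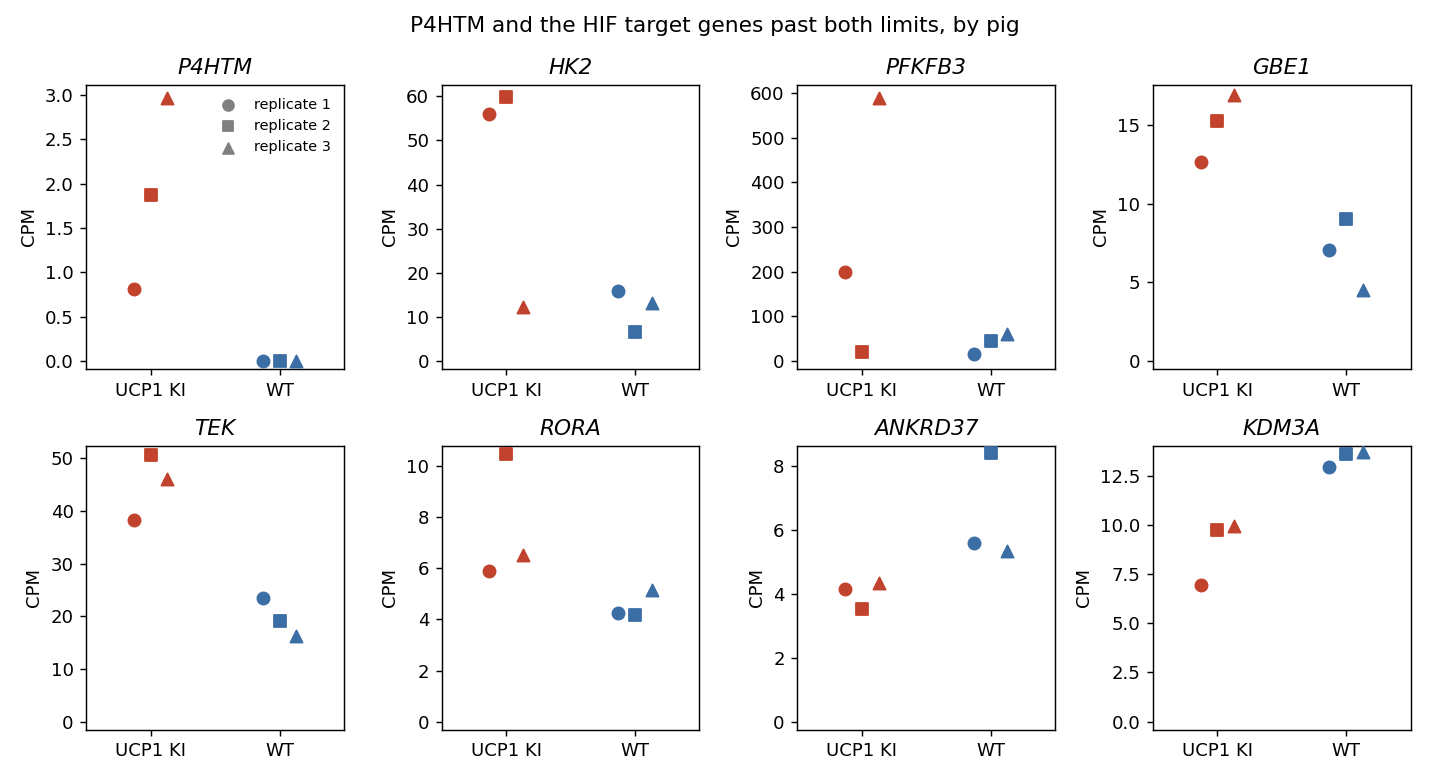
Level in CPM (vertical axis) of *P4HTM* and of the 7 called HIF targets in each KI pig (red) and WT pig (blue), with the replicate number as the symbol. *P4HTM* is at 0 in all WT pigs, *HK2* and *PFKFB3* overlap between the groups, and the other 5 targets do not.

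The genes whose log2 level ran most like that of *HIF1A* over the 6 pigs were *THBS2*, a matricellular protein (Pearson r = 0.992, Spearman rho = 0.943), *PPP1R18* (r = 0.989, rho = 0.829) and *RASSF9* (r = 0.989, rho = 0.943). For *EPAS1* they were *IPMK*, an inositol phosphate kinase (r = 0.995, rho = 1), *RAP1GAP2* (r = 0.990, rho = 0.943) and *HK3* (r = 0.986, rho = 0.943). For *ADM* they were *PLPP5* (r = 0.994, rho = 1), *MX2* (r = 0.990, rho = 0.943) and *CMPK2* (r = 0.989, rho = 1). *MX2* and *CMPK2* are known interferon-stimulated genes, and *MX2* was at 10.7, 19.1 and 6.91 CPM in KI pigs and at 15.1, 45.5 and 15.4 CPM in WT pigs. These are the highest among the tested genes with a symbol, over 6 pigs that share their libraries and scaling, so the coefficients are a description and carry no p.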

How the data were processed

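RNA-seq of longissimus dorsi was measured in 3 UCP1 KI and 3 WT pigs. The authors trimmed reads with Trimmomatic 0.36 and mapped them with HISAT2 2.0 to Sscrofa11.1 (the build named in the submitters' processing notes), and computed expression with StringTie 1.3.3b. The authors deposited raw counts per gene without normalization. The counting program and annotation release are not given in the sources used here. All 6 columns were used (0 unused).

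Counts were analysed with edgeR 4.0.16 in R 4.3.3, with filterByExpr, TMM factors and a quasi-likelihood F test with condition as the only term (two-sided). The common dispersion was 0.178. The call limits are those of the study, where adjustment of p is not specified; Benjamini-Hochberg values cover all genes tested. Standard errors are the log2 fold change divided by the square root of F. Within-pig ratios used counts plus 0.5. The procedure was also run on simulated counts, and the outcome of that run is not given here. Scaling was also done by median-of-ratios factors or by library size alone, and the filter was replaced by any count or by at least 10 counts in every pig. Other alternatives were DESeq2 1.42.0, a replicate block, leaving out each pig, no fold change limit, and 1 added in ratios.

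Symbols came from a table pairing 14864 identifiers, and coordinates are gene spans by symbol from the RefSeq annotation of Sscrofa11.1. Levels were not compared between genes, since transcript lengths were not used. The genes and lists were chosen with earlier results of these data known. The text names every measured gene of the oxygen-sensing list, all subunit relatives, VHL partners and receptor genes, the called genes of the other lists, and the 3 genes most correlated with *HIF1A*, *EPAS1* and *ADM*. *CITED2*, *OS9*, *LDHA*, *PDK1*, *VEGFA* and the neighbours of *P4HTM* were added after their values were seen. *ADM2* and the listed HIF targets *SLC2A1*, *HMOX1*, *CA9*, *BNIP3* and *AK4* were found under no identifier. The HIF targets *EPO* and *CA12* were left out by the filter. The adipose and lipid data were not analysed here.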

Additional observations from a re-analysis of the deposited data

How the results depend on the processing

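With 3 pigs a group the intervals of the 7 genes reach folds from 0.333 to 2.19, and each gene had at least 195 counts in every pig. Over 42 values of the 7 genes under the 6 alternatives that kept all pigs, 4 had the opposite sign and 1 was called. With library size only, which raised the median of all genes by 0.25, *HIF1A* was at -0.057, *EPAS1* at 0.22, *HIF1AN* at 0.26, *ARNT* at 0.12, *EGLN1* at 0.32, *EGLN3* at 0.52, *ADM* at -0.33, *HIF3A* at 0.081 and *ELOB* at 0.011, the receptor genes *CALCRL*, *RAMP1* and *PAM* at 0.18, 0.19 and 0.061, and the other HIF targets had a median of 0.37. The called genes were then 929 higher and 195 lower, so that 82.7% were higher in place of 46.9% (515 and 582). With that shift taken off, *EPAS1* was at -0.04, *ARNT* at -0.13 and *HIF1AN* at 0.003. With all genes with any count, *EPAS1* was at 0.0044. With the replicate number as a block, 1 of the 7 genes was called, *ADM* (-0.65, unadjusted p = 0.0484 from edgeR), and 1114 genes in all. The SE was lower under the block for all 7 genes. It was 0.21 for *HIF1A*, 0.22 for *HIF1AN* and 0.26 for *ADM*, against 0.36, 0.50 and 0.40 in the main fit. No source used here pairs the pigs by these numbers. The deviations of same-numbered pigs from their group means correlated at 0.02, 0.07 and 0.23 for replicates 1 to 3. The value of 0.23 was the highest for any KI and WT pig. With 3 pigs a group these correlations cannot settle whether the numbers pair the pigs. KI replicate 1 correlated best with WT replicate 2, so not every pig was closest to its own number. Under the block, *PFKFB3* (2.17), *ANKRD37* (-0.66), *RORA* (0.71) and the markers *LUM* (-0.55), *NOTCH3* (-0.88) and *CD3E* (1.47) were not called. With library size only, *LUM* (-0.31), *NOTCH3* (-0.83) and *HBM* (-1.26) were not called, and with all genes with any count *LUM* (-0.55) was not.

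With each pig left out, 0 of the 42 values of the 7 genes were called and 7 had the opposite sign, with log2 fold changes from -0.19 to 0.17 for *EPAS1*, -0.67 to 0.45 for *HIF1AN*, -0.35 to 0.071 for *ARNT* and -0.12 to 0.27 for *EGLN1*. *HIF1A* (-0.57 to -0.07), *EGLN3* and *ADM* (-0.97 to -0.25) kept their sign. Ranges were -0.47 to 0.20 for *HIF3A*, -0.037 to 0.19 for *ELOC*, -0.094 to 0.16 for *RBX1*, -0.44 to 0.080 for *CALCRL*, -0.28 to 0.053 for *RAMP1*, -0.88 to 0.10 for *RAMP3* and -0.36 to 0.014 for *PAM*. Called HIF targets numbered 2 to 8, and called genes 678 to 1541 (289 to 750 higher, 386 to 791 lower), the fewest, 678, without KI replicate 2, and 718 without WT replicate 2. The cause of these changes was not tested. The planned ratios of *EGLN2* and *VHL* to *EGLN1* were not run.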
